A study of Bos taurus with 12 samples.

Results

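Granulosa cells of the dominant follicle (DF) of Simmental heifers taken on day 7 of the estrous cycle were compared with those taken on day 3 by small RNA sequencing, with 3 biological replicates for each day. The 6 DF libraries are those that the sample labels assign to dominant follicles on either day, out of 12 libraries in all. The other 6 libraries came from subordinate follicles (SF) on the same days. Each mature miRNA was taken once, from the precursor entry with the most reads, and a miRNA entered the comparison when 2 or more of the 3 replicates of either DF day had a read of it. This gave 360 of the 755 mature names listed, against 337 in SF and 378 in any of the 4 groups.

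The heifers of both days were of the same breed, and their cycles were synchronized. They were slaughtered on either day 3 or day 7, so the 2 days came from different animals. Follicles were graded by diameter, and the diameter range for DF was higher on day 7 than on day 3, so day and follicle size cannot be told apart. Follicular contents were pooled by follicle size, and the cells were spun down without a sort or gate. In such bulk samples, fewer cells of a type and less RNA per cell cannot be told apart.

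Granulosa cells line the follicle, convert theca androgens to estradiol under follicle-stimulating hormone and, as a follicle gains dominance, acquire receptors for luteinizing hormone. A dominant follicle that grows while the corpus luteum secretes progesterone does not ovulate and regresses. MiRNAs are short RNAs that pair with messenger RNAs mainly through a seed near their 5′ end, and so reduce the stability or translation of many transcripts at once. Several were first described in the ovary as hormone-responsive regulators of granulosa cell survival, proliferation and steroid output.

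The DF libraries held between 160418 and 405129 reads on known miRNAs. The smallest was day 7 replicate 2, which also stood farthest from the rest of its group: over 188 miRNAs, its root-mean-square difference from replicates 1 and 3 was 0.872 and 1.15 on the log2 scale, against 0.502 between replicates 1 and 3. Differences among day 3 replicates lay between 0.521 and 0.551, and differences between the days between 2.05 and 2.45. The common dispersion was 0.0290 among day 3 and 0.115 among day 7 libraries. The SD values of day 7 below therefore carry its wider spread. The tests fitted a dispersion shared by both days, with a common value of 0.0729, so they do not carry that spread in full. For some of the results that depend on day 7 replicate 2, though not for all, the value without it is given beside them. The labels call the samples biological replicates without tying them to animals. The study graded more follicles as DF on day 3 than on day 7, so the libraries of the days can differ in the number of follicles pooled. The part of this in the spread was not tested.

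Levels of 145 of 360 miRNAs (40.3%) changed between the days in edgeR's quasi-likelihood test, where a call needed a log2 fold change of 1 or more in either direction, a p of at most 0.05 and a Benjamini-Hochberg false discovery rate of at most 10%. At day 7, 88 (24.4%) were increased and 57 (15.8%) decreased. The median log2 fold changes of the increased and the decreased miRNAs were 3.15 and -2.01, and all 360 miRNAs had a median of 0.05. With miRNAs that had no read on one day set at the bound that a floor of 3 reads per library gives, these medians were 2.45, -1.55 and 0. Among called miRNAs with a mean of at least 10 normalized counts (reads divided by the size factor of the library), 15 were increased and 2 decreased by at least 4 on the log2 scale.

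**Figure D1:**
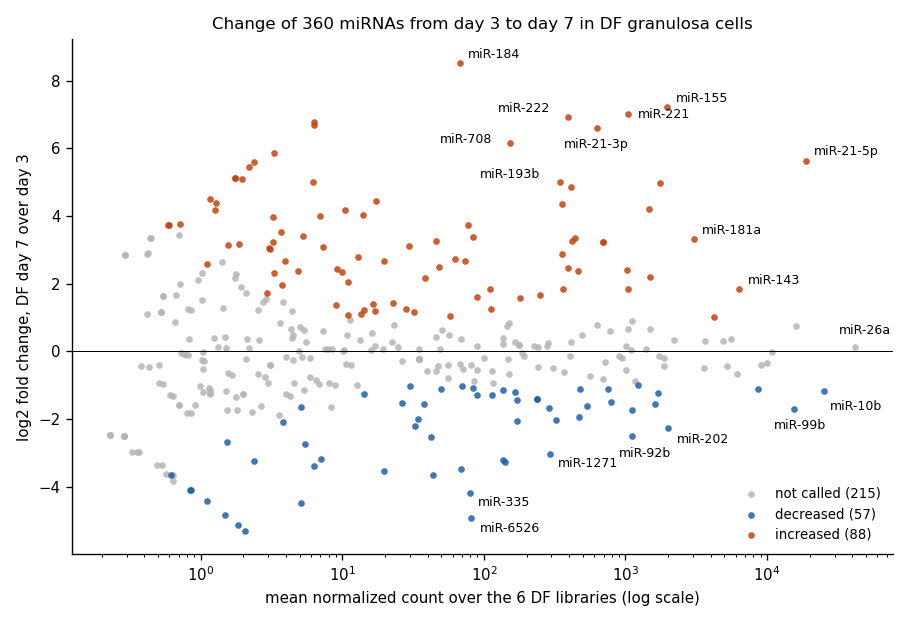
Log2 fold change of DF day 7 against day 3 (vertical axis) by the mean normalized count over the 6 DF libraries (horizontal axis, log scale), with 1 point for each of the 360 miRNAs tested and colours for increased, decreased and not called miRNAs. Called miRNAs occur at every level, with 88 above and 57 below 0.

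The calls were spread over the whole range of abundance. Among the 43 miRNAs with a mean of at least 1000 normalized counts, 11 were increased and 9 decreased (46.5% called). Of the 66 between 100 and 1000, 18 were increased and 17 decreased, and of the 79 between 10 and 100, 25 were increased and 16 decreased. The 172 miRNAs under 10 held 34 increased and 15 decreased (28.5% called). All day 7 libraries lay above or below all day 3 libraries for 180 of the 360 miRNAs (50.0%), and for 129 of the 145 that were called. The shares of reads follow largely from the calls, since the increased and decreased sets were defined in the same libraries. The increased miRNAs held 4.12% of the reads at day 3 and 32.7% at day 7, the decreased ones 37.6% and 13.0%, and the others 58.3% and 54.3%. Without day 7 replicate 2, 138 miRNAs were called, 81 increased and 57 decreased.

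The order of the most abundant miRNAs differed between the days. At the top of both days stood bta-miR-26a, a repressor of the chromatin modifier EZH2, with normalized counts of 46806, 38706 and 34504 on day 3 and 43247, 44573 and 44538 on day 7. The days overlapped, and bta-miR-26a was not called (log2 fold change 0.12, standard error 0.17, adjusted p = 0.573). It held 16.2% ± 1.44 of the reads at day 3 and 16.1% ± 0.817 at day 7 (SD, n = 3). Next at day 3 came bta-miR-10b with 14.0% ± 2.56 and bta-miR-99b with 9.52% ± 0.904 of the reads. By day 7 bta-miR-10b held 5.65% ± 0.398 and bta-miR-99b 2.70% ± 0.783, and the second place was taken by bta-miR-21-5p with 13.3% ± 1.88. In each library the top 10 miRNAs were summed, and they held 67.9% ± 2.72 of the reads at day 3 and 61.4% ± 3.26 at day 7, with no overlap between the days (two-sided exact permutation test, p = 0.1, the smallest that 3 against 3 libraries can give). The size of this difference depended on the number summed: it was -6.44 percentage points for 10 miRNAs, -2.85 for 5 and -2.74 for 20.

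Among the increased miRNAs, bta-miR-21-5p had the most reads. Known for holding down the pro-apoptotic factor PDCD4 and for its induction by luteinizing hormone in granulosa cells, it had normalized counts of 670.3, 727 and 814 on day 3 and 36995, 29826 and 43268 on day 7. Every day 7 library exceeded every day 3 library, and the level was 49.1-fold higher at day 7 (log2 fold change 5.62, standard error 0.22, adjusted p = 2.47e-10, edgeR). Its less abundant arm moved likewise: bta-miR-21-3p went from 9.02, 11.6 and 17.6 to 1205, 1079.5 and 1462 (log2 fold change 6.61, standard error 0.30, adjusted p = 9.12e-10). The 3p arm made up 1.70% of the reads of the pair at day 3 and 3.29% at day 7.

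The paired miRNAs bta-miR-221 and bta-miR-222 share a seed and hold down the cell cycle inhibitor CDKN1B. Normalized counts of bta-miR-221 were 15.8, 18.3 and 12.7 on day 3 and 1846, 3074 and 1245 on day 7 (log2 fold change 7.00, standard error 0.39, adjusted p = 5.73e-09). Those of bta-miR-222 were 3.76, 4.28 and 11.7 on day 3 and 644, 1164 and 526 on day 7 (log2 fold change 6.93, standard error 0.46, adjusted p = 2.99e-08). Both were low in each day 3 library, and the highest value on day 7 was that of replicate 2 in each. Without that replicate their log2 fold changes were 6.57 and 6.52.

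From the host transcript BIC, bta-miR-155 is made in activated lymphocytes and macrophages and in many other cells. It rose 149.9-fold, from 21.8, 21.4 and 35.2 normalized counts at day 3 to 3565, 5215 and 2937 at day 7 (log2 fold change 7.23, standard error 0.34, adjusted p = 9.12e-10). The lowest day 7 library exceeded the highest day 3 library, and without day 7 replicate 2 the log2 fold change was 6.96. For bta-miR-184, a miRNA of epithelia best known from cornea and lens, only 1 read was found at day 3, in replicate 2, against 365 reads in the 3 day 7 libraries. Per read sequenced this is a ratio of 505 (exact 95% interval 90.1 to 20014, counting error only). Its normalized counts at day 7 were 110.3, 175 and 118, with the fitted change at 8.53 (standard error 0.56, adjusted p = 2.98e-08).

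Others with large increases belong to small families. Counts of called list members, here and below, stand beside 24.4% increased and 15.8% decreased among all 360 miRNAs. Within TENM4, bta-miR-708 shares its seed with bta-miR-28 and had normalized counts of 5.26, 3.67 and 2.93 on day 3 and 261, 346 and 293 on day 7 (log2 fold change 6.17, standard error 0.33, adjusted p = 3.65e-09). In the miR-28, miR-151 and miR-708 list, 2 of 4 members were increased, bta-miR-708 and bta-miR-28 (1.85), while bta-miR-151-3p and bta-miR-151-5p had log2 fold changes of -0.14 and -0.43 and were not called. Counts of bta-miR-193b, which is encoded beside bta-miR-365, were 19.5, 20.8 and 20.5 on day 3 and 605, 915 and 485 on day 7 (log2 fold change 5.02, standard error 0.31, adjusted p = 1.89e-08). Neither miRNA overlapped between the days, which their choice required. Of the 5 members of miR-193 and miR-365, 3 were increased, and both arms of bta-miR-193a were not called, at 0.62 and 1.45. For bta-miR-132, which is induced by luteinizing hormone in granulosa cells, the normalized counts were 2.25, 6.72 and 6.84 on day 3 and 34.2, 26.6 and 42.3 on day 7 (log2 fold change 2.68, standard error 0.44, adjusted p = 0.000213), while its partner bta-miR-212, at 1.73 (adjusted p = 0.148) with 0.984 ± 0.236 on day 3 and 3.21 ± 2.80 on day 7 (SD, n = 3), passed the fold threshold but not that for the false discovery rate. Without day 7 replicate 2, which had no read of it, bta-miR-212 was called as increased (2.13, adjusted p = 0.0302).

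**Figure D2:**
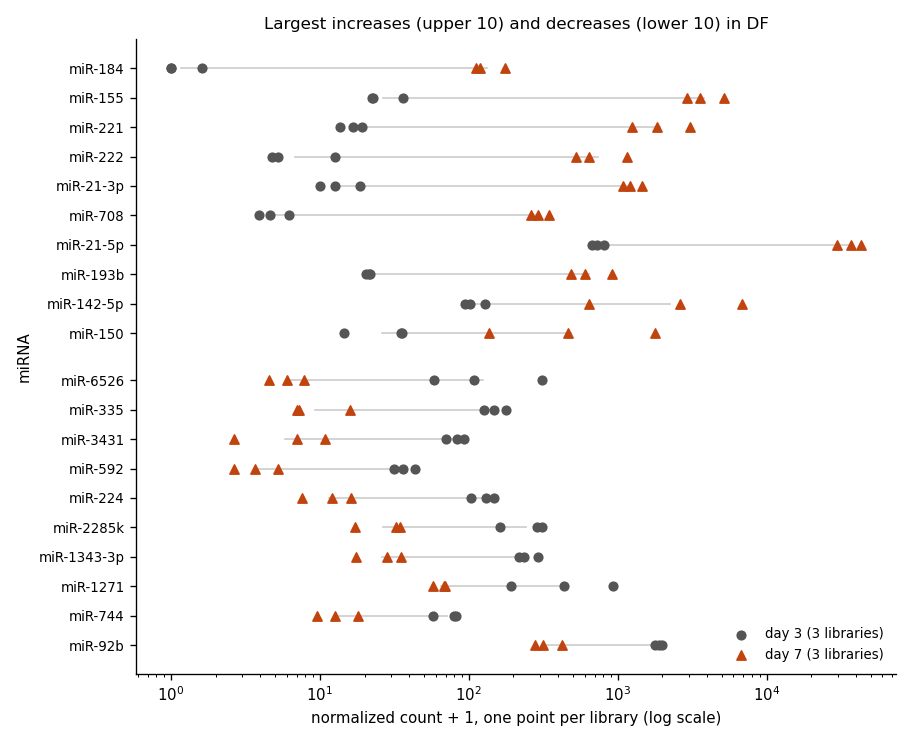
Normalized counts (log scale, offset by 1) of the 10 increased and 10 decreased miRNAs with the largest changes among called miRNAs with a mean of at least 10 and no overlap between the days, with 1 point per DF library coloured by day and a line joining the means of the days. For bta-miR-142-5p and bta-miR-150 the 3 day 7 points spread widely, with replicate 2 highest, whereas those of bta-miR-21-5p and bta-miR-708 lie close together.

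MiRNAs of leukocytes were among the largest increases and varied widely among the day 7 libraries. All 4 miRNAs of the leukocyte list were increased, with a median log2 fold change of 4.92 (4.05 at the bound, since bta-miR-142-3p had no read at day 3). Summed over the list, normalized counts lay between 116 and 162 at day 3, and reached 3110.4, 8636 and 783 in day 7 replicates 1, 2 and 3. Made in nearly all blood cells, bta-miR-142-5p had normalized counts of 128, 101 and 92.8 on day 3 and 2636, 6845 and 643 on day 7 (log2 fold change 4.97, standard error 0.64, adjusted p = 2.34e-05). Its log2 fold change was 3.90 without day 7 replicate 2. For bta-miR-150, a miRNA of mature lymphocytes, they were 34.6, 13.4 and 34.2 on day 3 and 465, 1776 and 135 on day 7 (log2 fold change 4.87, standard error 0.76, adjusted p = 0.000127), and 3.45 on the log2 scale without that replicate. The myeloid bta-miR-223 had 2 reads at day 3 and 16 at day 7, a ratio of 11.1 (exact 95% interval 2.60 to 99.3).

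The order of the day 7 libraries was the same for bta-miR-146a and bta-miR-146b, which NF-κB induces and which dampen inflammatory signalling. Normalized counts of bta-miR-146b were 139.8, 158 and 156 on day 3 and 2237, 5314 and 829 on day 7 (log2 fold change 4.20, standard error 0.52, adjusted p = 1.64e-05), and of bta-miR-146a 73.6, 98.4 and 62.5 on day 3 and 618, 1394 and 256 on day 7 (log2 fold change 3.26, standard error 0.49, adjusted p = 9.00e-05). Both rose, with replicate 2 highest and replicate 3 lowest at day 7. Without replicate 2 the log2 fold changes were 3.31 and 2.44. The part of leukocytes in these results, and in that of bta-miR-155, was not tested. The order of the day 7 libraries was not particular to miRNAs of leukocytes and inflammation. It was also that of bta-miR-221, bta-miR-222, bta-miR-204 and bta-miR-378. The summed erythrocyte miRNAs shared it, with 1296, 2322 and 808 normalized counts at day 7. The sum of stroma miRNAs had another order, with 12014, 8581 and 16646.

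Other cells of the follicle and its surroundings were read in the same way. MiRNAs of stroma and smooth muscle, which theca could add, all rose (6 of 6), and their sum went from 2457 to 4214 normalized counts at day 3 to between 8581 and 16646 at day 7. The endothelial bta-miR-126-3p rose (1.05), a call lost with library size scaling, without day 3 replicate 3 (0.80) and without day 7 replicate 3, and bta-miR-126-5p was not called at 0.48. Their sum lay between 61.6 and 101 at day 3 and between 130.0 and 160.2 at day 7. Erythrocyte miRNAs (bta-miR-451, bta-miR-144 and bta-miR-486) were not called, and their summed counts overlapped, at 737 to 1087 and 808 to 2322. Epithelial miRNAs of the miR-200 family were barely present, with a sum of at most 21.5 normalized counts in any DF library. Among 7 names of tissues that were not sampled, bta-miR-124a and bta-miR-206 had no read, and the sum of the others lay between 0.977 and 4.28 at day 3 and between 12.8 and 19.8 at day 7. Their part in the results was not tested either.

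**Figure D3:**
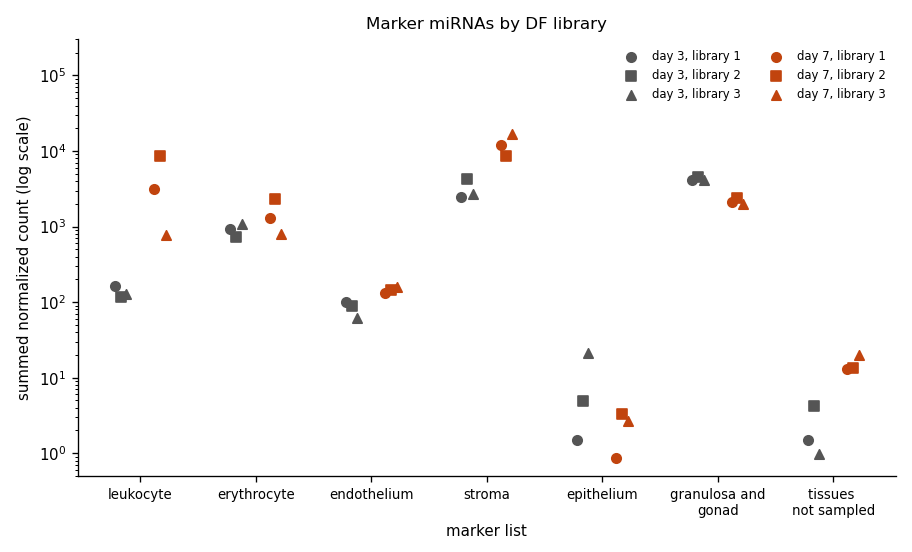
Summed normalized counts (log scale) of each list of marker miRNAs in the 6 DF libraries, coloured by day and with a shape for each replicate. Leukocyte miRNAs rise from 116 to 162 at day 3 to between 783 and 8636 at day 7. The sum of granulosa and gonad miRNAs falls from 4079 to 4478 to between 1979 and 2384. Of its 4 members 2 were called as decreased. In it bta-miR-202 goes from a mean of 3325 to 697, whereas bta-miR-378 is higher in every day 7 library.

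Granulosa identity was checked with miRNAs of the gonads. The gonad-enriched bta-miR-202 was present in every library, with normalized counts of 3129.8, 3673 and 3172 on day 3 and 753, 364 and 976 on day 7. All day 7 values lay below all day 3 values, replicate 2 lowest (log2 fold change -2.28, standard error 0.29, adjusted p = 1.93e-05, edgeR). Among miRNAs linked to granulosa steroid output, the list of miR-224, miR-378 and miR-383, 1 of 5 was increased, 1 decreased and 3 were not called. The one that fell was bta-miR-224, which targets SMAD4, with counts of 148, 130.2 and 103 on day 3 and 11.1, 6.65 and 15.3 on day 7 (log2 fold change -3.48, standard error 0.33, adjusted p = 9.41e-07). Known as a repressor of the aromatase CYP19A1, bta-miR-378 did not reach the threshold, with 857, 672 and 804 on day 3 and 1334, 2013 and 988 on day 7 (log2 fold change 0.88, standard error 0.26, adjusted p = 0.0142), although its days did not overlap. Its relative bta-miR-378c was increased (1.16), with overlap between the days, and lost this call with TMM or library size scaling, without either of day 3 replicates 2 and 3 (1.02 and 0.95) and without day 7 replicate 2, when its log2 fold change was 0.36. Normalized counts of bta-miR-383 were 1.27 ± 1.59 on day 3 and 0 in every library on day 7 (SD, n = 3), too few for a fold change. All 4 gonad markers together (bta-miR-202, bta-miR-224, bta-miR-378 and bta-miR-383) summed to between 4079 and 4478 at day 3 and between 1979 and 2384 at day 7.

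Whole families that mark mesenchymal and vascular cells increased together. In the miR-199 and miR-214 list 5 of 5 were increased, with a median log2 fold change of 3.23. Encoded within DNM3, bta-miR-214 had normalized counts of 9.77, 15.9 and 4.89 on day 3 and 138, 105 and 193 on day 7, and bta-miR-199a-3p had 120.2, 151 and 128 on day 3 and 1225, 1228 and 1338 on day 7. The name bta-miR-199c carried the same counts as bta-miR-199a-3p in these libraries, so they are one measurement. Both miRNAs of the smooth muscle cluster rose: bta-miR-143 with 2112, 3793 and 2338 on day 3 and 9633, 6474 and 13883 on day 7 (log2 fold change 1.84, standard error 0.28, adjusted p = 0.000117), and bta-miR-145 with 93.9, 101 and 75.2 on day 3 and 259, 249.5 and 308 on day 7 (log2 fold change 1.57, standard error 0.23, adjusted p = 7.75e-05). With 3.60% ± 1.15 of the reads at day 7 (SD, n = 3), bta-miR-143 became the sixth most abundant miRNA, and day 7 replicate 3 had the highest count of both.

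All 4 members of the miR-181 family, regulators of lymphocyte and endothelial signalling, were increased, with log2 fold changes from 2.43 to 3.31. In bta-miR-181a the counts were 455, 630.3 and 576 on day 3 and 4956, 6662 and 4996 on day 7. Every day 7 library lay above every day 3 library. In the miR-29 family, which represses collagens, 4 of 4 were increased with a median of 2.53 (2.37 at the bound). Its main member bta-miR-29a had 127, 149 and 167 on day 3 and 745, 717 and 886 on day 7 (log2 fold change 2.39, standard error 0.22, adjusted p = 8.20e-07), and bta-miR-29c and bta-miR-29d were under 10 normalized counts. The call of bta-miR-29c was lost without day 7 replicate 3 (1.79), and that of bta-miR-29d in DESeq2's Wald test (adjusted p = 0.106).

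Of 7 members of the miR-23, miR-27 and miR-24 clusters, 4 were increased and 0 decreased. The larger changes were those of the miR-23a cluster: bta-miR-23a had 23.3, 35.5 and 39.1 on day 3 and 522, 1041 and 471 on day 7 (log2 fold change 4.37, standard error 0.36, adjusted p = 3.39e-07) and bta-miR-27a-3p 75.1, 81.9 and 75.2 on day 3 and 712, 922 and 763 on day 7 (log2 fold change 3.35, standard error 0.23, adjusted p = 3.68e-08). In the cluster of bta-miR-23b-3p and bta-miR-27b, within AOPEP, the first was increased (2.19) and bta-miR-27b was not called, with 11486, 13324 and 10361 on day 3 and 19892, 15278 and 25472 on day 7 (log2 fold change 0.76, standard error 0.20, adjusted p = 0.0081). The bta-miR-27b libraries did not overlap, and its share of reads went from 4.77% to 7.32%.

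**Figure D4:**
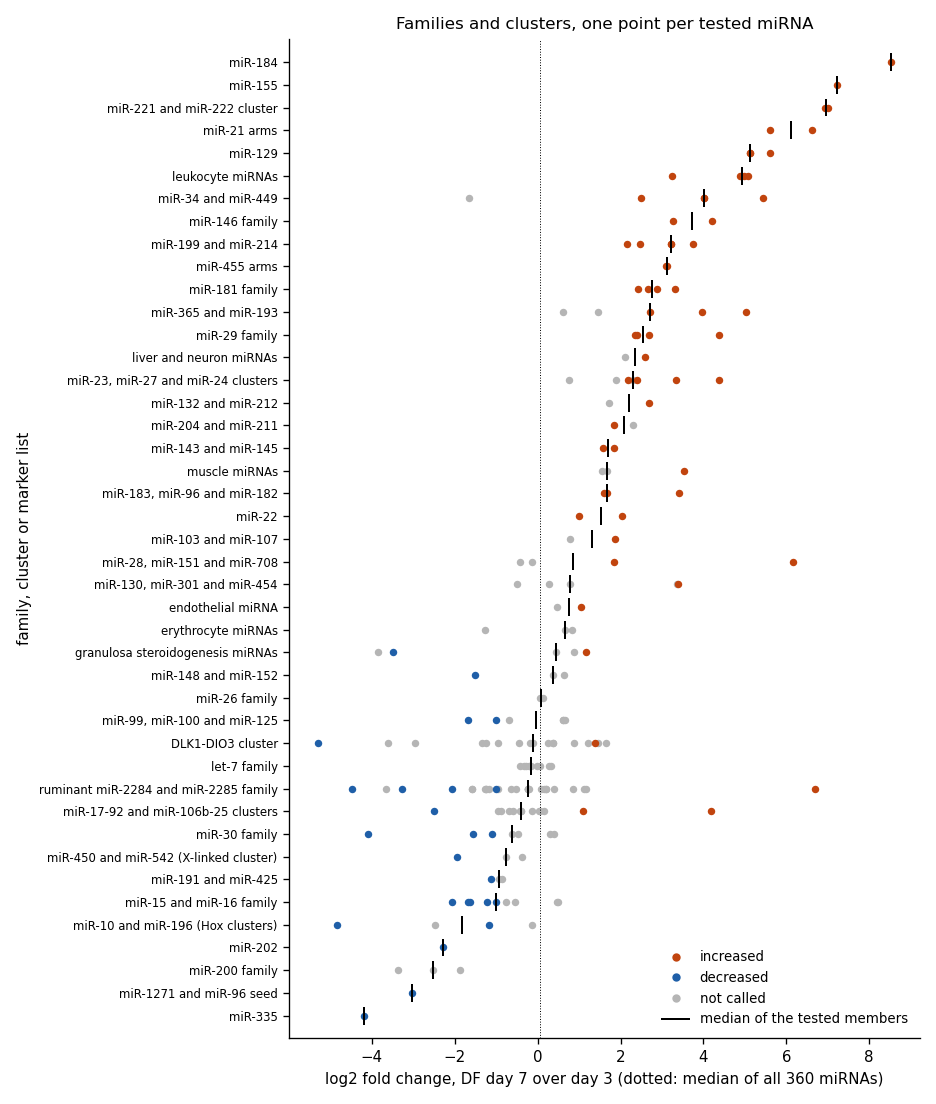
Log2 fold change of DF day 7 against day 3 for each tested member of the 43 lists (points, coloured where called), with a tick at the median of each list and a dotted line at the median of all 360 miRNAs (0.05). The miR-21, miR-221 and miR-222, miR-146 and miR-181 members lie well to the right, the let-7 family sits around the dotted line, and the miR-15 and miR-16 family lies mostly to the left.

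In the miR-34 and miR-449 list, a seed family known from ciliated cells, 4 of 5 were increased, with a median of 4.01 (2.48 at the bound). For bta-miR-34a (2.48) the counts were 10.5, 15.3 and 16.6 on day 3 and 76.1, 156 and 13.5 on day 7 and overlapped between the days. Its log2 fold change was 1.64 without day 7 replicate 2, where it was highest. The 3 members within CDC20B moved the same way: bta-miR-449a (4.02) had 0.751, 0.611 and 3.91 on day 3 and 29.1, 3.33 and 45.9 on day 7, bta-miR-449c had 3 reads at day 3 and 45 at day 7 (ratio 20.8, exact 95% interval 6.67 to 104), and bta-miR-449b had none at day 3. In day 3 replicate 3 bta-miR-34c was at its highest, with counts of 5.26, 5.50 and 27.4 on day 3 and 0.855, 3.33 and 7.20 on day 7, and it was not called (-1.66). A decrease was called in this list under some alternatives, among them library size scaling, no filter and the omission of single libraries. All 3 members of the sensory cluster of bta-miR-183, bta-miR-96 and bta-miR-182 were increased, with 61.6, 153 and 137 on day 3 and 346, 366 and 425 on day 7 for bta-miR-182 (log2 fold change 1.68, standard error 0.30, adjusted p = 0.000449). Both arms of bta-miR-455, of cartilage and fat, rose, the 3p arm by 3.13 and the 5p arm from 0.751, 2.45 and 0.977 to 12.8, 4.99 and 21.6 normalized counts, and bta-miR-22-5p by 2.04. With it rose bta-miR-22-3p, from 2603, 2547 and 3176 to 5036, 5767 and 6049 normalized counts. The call of bta-miR-22-3p lay at the threshold and was lost with TMM or library size scaling and without any one of 4 libraries, at 0.91 to 0.97.

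Among families with a single called member, bta-miR-130b was increased (15.0, 12.2 and 16.6 on day 3 and 139, 176 and 146 on day 7, log2 fold change 3.38) while bta-miR-130a, bta-miR-301a, bta-miR-301b and bta-miR-454 were not called. Without day 7 replicate 2 bta-miR-301b, which had no read at day 3, was called. From TRPM3, bta-miR-204 rose (491, 355 and 515 on day 3 and 1442, 2394 and 1062 on day 7, log2 fold change 1.84), and bta-miR-211 was not called. In PANK1, a gene of coenzyme A synthesis, bta-miR-107 rose by 1.86 and its relative bta-miR-103 was not called at 0.78. The 3 names of miR-129 were increased without a read at day 3. Since bta-miR-129 and bta-miR-129-5p carried the same counts, the 3 names make up 2 measurements. Over the 3 names, with the shared counts entered under both, the median bound was 0.39 on the log2 scale.

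The muscle list had 1 increased member of 3, bta-miR-133a, with 2 reads at day 3 and 20 at day 7 (ratio 13.8, exact 95% interval 3.36 to 122). Without day 7 replicate 2 bta-miR-1 was also called as increased (log2 fold change 1.84, adjusted p = 0.0393, edgeR). Of the 2 tested names of liver and neuron, bta-miR-9-5p was increased, with 1 read and 6 reads (ratio 8.31, exact 95% interval 1.01 to 382), and this call was lost with library size scaling and without any one of 4 libraries, at 2.13 to 2.76. These levels are close to the floor of 3 reads, which is between 0.000741% and 0.00187% of a DF library.

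Among decreases with a mean of at least 10 normalized counts, the steepest was that of bta-miR-6526, a name with 3 precursor entries of equal reads, with normalized counts of 57.9, 308 and 108 on day 3 and 6.84, 4.99 and 3.60 on day 7 (log2 fold change -4.94, standard error 0.62, adjusted p = 1.93e-05, edgeR). Day 3 replicate 2 was highest, and no day 7 library reached the lowest day 3 value. Within the imprinted gene MEST, bta-miR-335 had counts of 148, 177 and 126 on day 3 and 5.99, 15.0 and 6.30 on day 7 (log2 fold change -4.18, standard error 0.36, adjusted p = 5.07e-07). All day 3 libraries stood far above day 7, where replicate 2 was highest. Without day 7 replicate 2 the log2 fold changes of bta-miR-6526 and bta-miR-335 were -4.92 and -4.62.

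Within the receptor gene GABRE, bta-miR-224 fell together with its neighbours bta-miR-3431 and bta-miR-452, the 3 log2 fold changes lying between -3.66 and -3.18. Counts of bta-miR-3431 were 91.7, 69.1 and 82.1 on day 3 and 5.99, 1.66 and 9.90 on day 7 (log2 fold change -3.66, standard error 0.40, adjusted p = 5.03e-06). The glutamate receptor gene GRM8 spans bta-miR-592, which had counts of 42.8, 30.6 and 35.2 on day 3 and 4.28, 1.66 and 2.70 on day 7 (log2 fold change -3.54, standard error 0.45, adjusted p = 1.93e-05). Within PDHX, a gene of the pyruvate dehydrogenase complex, bta-miR-1343-3p had 289, 236 and 217 on day 3 and 27.4, 16.6 and 34.2 on day 7 (log2 fold change -3.23, standard error 0.29, adjusted p = 5.84e-07). The days did not overlap for bta-miR-3431, bta-miR-592 and bta-miR-1343-3p, which their choice required.

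A further 4 were named by the size of their change. The ruminant bta-miR-2285k had 309, 289 and 161 on day 3 and 33.4, 31.6 and 16.2 on day 7 (log2 fold change -3.26, standard error 0.35, adjusted p = 3.56e-06), and bta-miR-744, within the kinase gene MAP2K4, 56.4, 78.3 and 81.1 on day 3 and 8.55, 11.6 and 17.1 on day 7 (log2 fold change -2.54, standard error 0.34, adjusted p = 3.66e-05). Counts of bta-miR-1271, which shares its seed with bta-miR-96, varied at day 3: they were 932, 438 and 193 on day 3 and 67.6, 56.6 and 68.4 on day 7 (log2 fold change -3.04, standard error 0.45, adjusted p = 7.90e-05). All day 3 libraries were above day 7, which its choice required. The most abundant of them, bta-miR-92b, had 1774, 1893 and 1985 on day 3 and 316, 279 and 419 on day 7 (log2 fold change -2.49, standard error 0.22, adjusted p = 4.89e-07). Its libraries were even within each day and, as its choice required, did not overlap.

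Some of the most abundant miRNAs had moderate decreases. Encoded within the span of HOXD4, bta-miR-10b had 44414, 31855 and 27818 on day 3 and 14727, 16216 and 15530.0 on day 7 (log2 fold change -1.18, standard error 0.20, adjusted p = 0.000239), and without day 3 replicate 1 its fold change came just under the threshold and the call was lost. For bta-miR-99b the counts were 26576, 24632 and 19344 on day 3 and 8839, 4882 and 8529 on day 7 (log2 fold change -1.69, standard error 0.23, adjusted p = 3.37e-05), lowest in day 7 replicate 2. Those of bta-miR-191 were 11008, 11628 and 12514 on day 3 and 5030.4, 5915 and 5402 on day 7 (log2 fold change -1.12, standard error 0.17, adjusted p = 0.000127). In the miR-191 and miR-425 list it was the one member called of 3 (2 with library size scaling), and bta-miR-425-3p and bta-miR-425-5p had log2 fold changes of -0.86 and -0.94.

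Their relatives did not all follow. In the list of miR-10 and miR-196, both from the Hox clusters, 2 of 4 were decreased: bta-miR-10b and bta-miR-196a, the second of which had few reads at day 3 and none at day 7, and lost its call without day 3 replicate 1 (-3.48) or day 7 replicate 1 (-4.84). The median of -1.83 was -0.07 with the miRNAs without day 7 reads at their bound. Of the 6 members of miR-99, miR-100 and miR-125, 2 were decreased, bta-miR-99b and, at the threshold, bta-miR-99a-5p, and 4 were not called, among them bta-miR-125a (-0.68) and bta-miR-100 (0.60). The call of bta-miR-99a-5p was lost without day 3 replicate 2 (-0.97) or day 7 replicate 3 (-0.92). The list median was -0.04. Among neighbours of one transcript, bta-miR-99b fell, and bta-let-7e (-0.19) and bta-miR-125a were not called.

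The miR-15 and miR-16 family, which holds down cyclins, had 5 of 9 members decreased and 0 increased, with a median of -1.01. Among all 360 miRNAs 15.8% were decreased. Counts of bta-miR-16b were 2172, 2529.7 and 2393 on day 3 and 974, 1266 and 837 on day 7 (log2 fold change -1.22, standard error 0.21, adjusted p = 0.000353), and those of its neighbour within SMC4, bta-miR-15b, 373, 498 and 443 on day 3 and 137, 176 and 103 on day 7 (log2 fold change -1.68, standard error 0.25, adjusted p = 0.000106). The pair bta-miR-195 and bta-miR-497 fell by 1.63 and 2.07 on the log2 scale. The call of bta-miR-424-5p was lost without day 7 replicate 2 (-0.75). From another locus, bta-miR-16a and bta-miR-15a had log2 fold changes of 0.47 and -0.55 and were not called.

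Against 15.8% of all 360 miRNAs, 3 of 7 were decreased in the miR-30 family and 0 increased, with a median of -0.62. Of these, bta-miR-30e-5p had 2508, 2594 and 2074 on day 3 and 802, 817 and 868 on day 7 (log2 fold change -1.55, standard error 0.19, adjusted p = 1.75e-05) and lies with bta-miR-30c (-1.10) in NFYC, and bta-miR-30b-3p was without a read at day 7 and lost its call without any one of 3 libraries (-4.09 to -3.59). The most abundant members, bta-miR-30d (-0.48) and bta-miR-30a-5p (0.31), were not called. The list of bta-miR-148a, bta-miR-148b and bta-miR-152 split in the same way: bta-miR-148b fell (1152, 1215 and 1098 on day 3 and 446, 284 and 508 on day 7, log2 fold change -1.51) and the more abundant bta-miR-148a was not called (0.36). In the X-linked list of miR-450 and miR-542, bta-miR-450b fell by 1.95 on the log2 scale and bta-miR-450a (-0.77) and bta-miR-542-5p (-0.39) were not called.

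Other large families had few calls or none. None of the 10 members of the let-7 family, which promotes differentiation, was called, and log2 fold changes ran from -0.42 in bta-let-7i to 0.33 in bta-miR-98, the median being -0.17. Together they summed to 39893 ± 587 normalized counts at day 3 and 35429 ± 2487 at day 7 (SD, n = 3). The most abundant member, bta-let-7a-5p, had 11242, 10394 and 10731 on day 3 and 10246, 10602 and 11600.0 on day 7 (log2 fold change -0.01, standard error 0.17, adjusted p = 0.955). Both tested members of the miR-26 family were not called, and their median of 0.09 became negative with library size scaling. A change under the threshold does not show that levels were equal.

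The list of the proliferation-linked miR-17-92 and miR-106b-25 clusters also holds their relatives from other loci, among them bta-miR-363 and bta-miR-92b. Of its 14 members, 2 were increased (bta-miR-17-3p and bta-miR-363), 1 decreased (bta-miR-92b) and 11 not called, with a median of -0.40. Both increased members had low counts, 8.26 ± 3.36 on day 3 and 18.9 ± 4.02 on day 7 for bta-miR-17-3p and 0 in every library on day 3 and 2.50 ± 3.62 on day 7 for bta-miR-363 (SD, n = 3). Both calls depended on single libraries: without any one of 3 libraries bta-miR-17-3p was at 0.82 to 1.05 and bta-miR-363 at 4.06 to 4.19, not called. Without day 7 replicate 2 bta-miR-363 no longer met the detection rule. With TMM scaling 1 was increased and 1 decreased, and with library size alone 0 and 2. The abundant bta-miR-92a had a log2 fold change of -0.43 and was not called. Of 17 members of the list for the imprinted DLK1-DIO3 cluster, 1 was increased (bta-miR-345-3p, 1.39), 1 decreased (bta-miR-409a, not called without day 7 replicate 1, at -5.27) and 15 not called, with a median of -0.10. Neither bta-miR-342, within EVL, nor bta-miR-345 lay within 10 kb of the precursor of another tested member. Their place in the imprinted cluster is therefore not shown. The ruminant-specific miR-2284 and miR-2285 family, whose near-identical members can share reads, had 1 increased, 4 decreased and 24 not called of 29, with a median of -0.24 (5 decreased with library size scaling). Apart from bta-miR-2285k, its decreased members were bta-miR-2284t-3p, bta-miR-2285c and bta-miR-2285f, and bta-miR-2285t was the increased one, with 0, 0 and 0 on day 3 and 7.70, 29.9 and 0 on day 7 and overlap at 0, so that without day 7 replicate 2 it no longer met the detection rule. The call of bta-miR-2285c was lost without day 7 replicate 3 (-1.41), and that of bta-miR-2285f without any one of 3 libraries (-0.97 to -0.90). Some names of this family carried the same counts: bta-miR-2284z and the bta-miR-2284aa names, bta-miR-2284x and bta-miR-2284y, and bta-miR-2285b and bta-miR-2285u. The number not called and the median of the family therefore repeat some measurements. Of the 3 tested members of the miR-200 family 0 were called, and 2 had no read at day 7.

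Detection on one day alone mostly involved single reads. Both days had 273 miRNAs, with a median of 55.2 reads, 45 were detected at day 3 alone and 42 at day 7 alone, with a median of 1 read in each set. Among those of day 7, bta-miR-184 had the most reads, a mean of 61 per library over both days. Read in all 3 day 7 libraries and in none of day 3 were bta-miR-346, bta-miR-449b, bta-miR-1249, bta-miR-142-3p, bta-miR-129-5p (with bta-miR-129), bta-miR-2389, bta-miR-760-5p and bta-miR-29d. The highest of them, bta-miR-346 from the glutamate receptor gene GRID1, had 14.5, 21.6 and 1.80 normalized counts and was at least 4.93-fold higher than 3 reads per day 3 library. On the same floor bta-miR-1249 was at least 2.48-fold, bta-miR-449b at least 1.64-fold, bta-miR-142-3p at least 1.53-fold and bta-miR-129-5p at least 1.31-fold higher, and for the others the depth allows no bound. All were called, but bta-miR-2389 not without day 7 replicate 3 (3.53) and bta-miR-760-5p not without day 7 replicate 1 (3.56).

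The reverse set, with reads in all day 3 and in no day 7 library, was bta-miR-196a, bta-miR-2332, bta-miR-2404, bta-miR-30b-3p, bta-miR-488, bta-miR-1940 and bta-miR-2284t-5p. The first 5 were called, but bta-miR-2404 not without day 7 replicate 1 (-4.08) and bta-miR-488 not without any one of 4 libraries (-3.81 to -3.48). Only bta-miR-2332 exceeded the floor, at least 1.21-fold lower at day 7, from 2.25, 4.89 and 3.91 normalized counts. Of those nearly lost, bta-miR-190b had 47 reads at day 3 and 3 at day 7, a ratio of 11.3 (exact 95% interval 3.64 to 56.8), with counts of 15.8, 10.4 and 8.80 on day 3 and 0, 0 and 2.70 on day 7 (log2 fold change -3.40, standard error 0.84, adjusted p = 0.00489).

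Arms of one precursor could be compared in 32 pairs. Both arms were called in 9 of them, 8 the same way and 1 in opposite directions, in 8 the more abundant arm alone was called, in 4 the other arm alone, and in 11 neither. Fold changes had the same sign in 27 pairs, and the arms differed by a median of 0.82 on the log2 scale. In the opposite pair the arm bta-miR-2411-3p fell (-1.65) while bta-miR-2411-5p rose (3.06), the second with 2 reads at day 3 and 13 at day 7, of which 7 were in replicate 2. Without day 7 replicate 2 bta-miR-2411-5p was not called (2.17, adjusted p = 0.128), so that only the 3p arm of the pair was. In 9 pairs where both arms had a mean of at least 10 normalized counts, both were called in 3, the same way. The 3p arm of bta-miR-17 went from 8.24% to 21.3% of the reads of its pair, and bta-miR-199a-5p from 47.2% to 34.7%.

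Positions of 355 of the 360 miRNAs were found by name in RefSeq's ARS-UCD2.0 annotation, used here for neighbours alone because the reads were aligned to another build. A protein-coding gene spanned 228 of them, strand ignored, and 93 of the 145 called. Precursors within 10 kb of each other formed 40 clusters with tested miRNAs. At least 2 members were called in 15 clusters, and in each of these the called members moved one way. Besides the clusters named above, these included bta-miR-193b with bta-miR-365-3p and the pair bta-miR-181c and bta-miR-181d, all increased. Reads of neighbouring precursors are separate counts, but miRNAs of one transcript are not independent of each other.

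Called miRNAs outside every list numbered 58, with 26 increased and 32 decreased. Of these, 2 were picked as examples after their values were seen. Counts of bta-miR-31 were 1826, 1699 and 1590.0 on day 3 and 484, 369 and 712 on day 7 (log2 fold change -1.73, standard error 0.24, adjusted p = 4.46e-05), and those of bta-miR-149-5p, within GPC1, 8.23 ± 3.79 on day 3 and 83.2 ± 19.3 on day 7 (SD, n = 3, log2 fold change 3.26, standard error 0.37, adjusted p = 7.38e-06), with no overlap in either. The lists were chosen with earlier results of these data known, and their 197 tested members held 62 increased and 25 decreased. Among all 360 miRNAs 88 were increased and 57 decreased.

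The same day contrast in SF served as the comparison. In SF 2 of 337 miRNAs (0.593%) were called, at the same thresholds, and 37 had an unadjusted p under 0.05. These 2 were bta-miR-155, with SF counts of 103 ± 18.9 on day 3 and 378 ± 210.0 on day 7 (SD, n = 3, log2 fold change 1.89, standard error 0.37, adjusted p = 0.0377), and bta-miR-1271, with 529 ± 252 on day 3 and 169.9 ± 80.4 on day 7 (log2 fold change -1.62, standard error 0.34, adjusted p = 0.0403). These 2 calls were fragile: 0 miRNAs were called without SF day 3 replicate 1, SF day 3 replicate 2 or SF day 7 replicate 2, and also with at least 10 reads required, whereas 20 were called without SF day 7 replicate 1. Both moved the same way in DF. Whether the DF change differed from the SF change was tested over all 12 libraries as the interaction of follicle class and day. It was called for 100 of 378 miRNAs (26.5%), 54 with a more positive and 46 with a more negative change in DF. Of the 145 miRNAs called in DF, 93 were among them, each with the sign of its DF change, and for the other 52 a difference from SF was not called. SF and DF of one day were dissected from the same group of heifers, so their libraries may share animals. The interaction test took all 12 libraries as independent.

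For bta-miR-184 the interaction was 12.24 (standard error 1.99, adjusted p = 0.0003). SF counts of it were 1.19 ± 2.06 on day 3 and 0 in every library on day 7. For bta-miR-222 it was 5.85 (standard error 0.67, adjusted p = 5.41e-06) and for bta-miR-221 5.54 (standard error 0.65, adjusted p = 6.65e-06), with SF log2 fold changes of 1.12 and 1.50. With 5.37 (standard error 0.55, adjusted p = 1.75e-06) it was also large in bta-miR-155, whose DF rise exceeded the one called in SF, and bta-miR-708 had 5.30 (standard error 0.70, adjusted p = 2.30e-05). Among decreases, bta-miR-335 had -4.39 (standard error 0.46, adjusted p = 2.26e-06) and SF counts of 305 ± 63.5 on day 3 and 358 ± 117 on day 7. The interaction was -4.26 (standard error 0.73, adjusted p = 0.000307) for bta-miR-6526, -3.80 (standard error 0.51, adjusted p = 2.74e-05) for bta-miR-3431, -3.36 (standard error 0.88, adjusted p = 0.00864) for bta-miR-190b and -3.10 (standard error 0.42, adjusted p = 2.74e-05) for bta-miR-224.

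**Figure D5:**
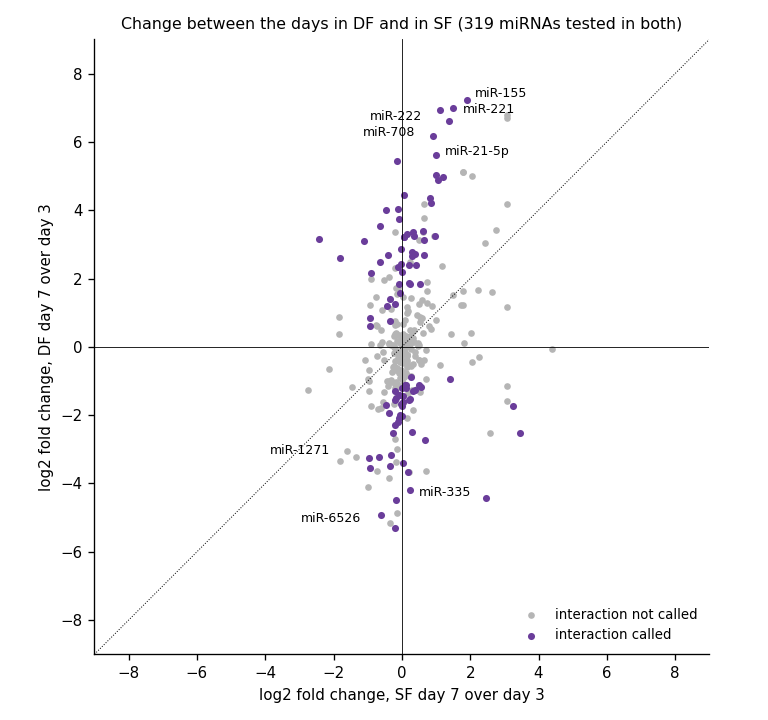
Log2 fold change of day 7 against day 3 in DF (vertical axis) by that in SF (horizontal axis) for the 319 miRNAs tested in both classes, with the miRNAs of a called interaction in purple and a dotted line where both changes are equal. DF values spread to 7.23 for bta-miR-155, whose SF value is 1.89, and bta-miR-184 is not plotted because it was not tested in SF.

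A difference was not called for bta-miR-1271, with an interaction of -1.37 (standard error 0.65, adjusted p = 0.151). Among abundant miRNAs, bta-miR-10b (-1.70), bta-miR-99b (-1.19), bta-miR-191 (-1.17), bta-miR-21-5p (4.66) and bta-miR-143 (1.98) had a called interaction, and so did bta-miR-27b (1.13), which was not called in DF itself. By list, the interaction was called for all 4 miR-181, all 5 miR-199 and miR-214 and both miR-146 members and for 0 of the 10 let-7 members. Of the 3 members of the miR-183, miR-96 and miR-182 cluster, called as increased in DF, 0 had a called interaction.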

How the data were processed

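The 6 DF libraries reported here belong to 12 small RNA libraries of granulosa cells. Per the labels and the study's methods, the authors trimmed reads (CASAVA 1.8.0, FastQC and cutadapt appear in the submitters' processing notes), mapped them to the bovine genome and quantified known miRNAs of miRBase with miRDeep2. The authors deposited raw read counts per pair of mature miRNA and precursor, unnormalized and unfiltered, in 906 entries under 755 mature names. Reads matching more than one precursor were counted under every match. For the 73 names with several entries, up to 11, the entry with the highest total over 12 libraries was used. Names with identical counts were kept. Groups and replicate numbers came from the sample labels.

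Raw counts were compared in R 4.3.3 with edgeR 4.0.16: median-of-ratios (RLE) scaling within the 6 libraries, two-sided quasi-likelihood F test, Benjamini-Hochberg adjustment over all miRNAs tested and a prior count of 0.125. Thresholds were those the study stated. The standard error is the log2 fold change divided by the square root of F. Normalized counts used size factors over 12 libraries, so their ratios can differ from fitted fold changes. Shares are percentages of the reads of a library. Intervals and the floor of 3 reads cover counting error only. SciPy 1.17.1 gave the exact tests. Alternatives, among them DESeq2 1.42.0, are described in the closing section. The procedure was tested on simulated data.

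The miRNAs and lists were chosen with earlier results of these data known. Named miRNAs were the 10 increased and 10 decreased with the largest changes, a mean of at least 10 and no overlap between the days, the 10 most abundant, list members, those read in all libraries of a single day, those of the 5 largest interactions in each direction with a mean of at least 10 over 12 libraries, and those called in SF. No heifer contributed to both days, so the replicate numbers were not used as pairs between them. The deviations of same-numbered DF libraries from their group means correlated by 0.03 to 0.06 in 188 miRNAs. Since the days came from different animals, this correlation cannot show a pairing by animal. Whether same-numbered SF and DF libraries of one day share heifers was not tested.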

Additional observations from a re-analysis of the deposited data

Results flagged for a closer look

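The change from day 3 to day 7 differed between DF and SF by a test of the difference itself for 100 miRNAs (interaction of follicle class and day over 12 libraries, edgeR's quasi-likelihood F test, Benjamini-Hochberg adjusted). Among those with a mean of at least 10 normalized counts, the change was more positive in DF, on the log2 scale, by 12.24 for bta-miR-184, 5.85 for bta-miR-222, 5.54 for bta-miR-221, 5.37 for bta-miR-155 and 5.30 for bta-miR-708. The value of bta-miR-184 is a fitted one, since SF had no read of it at day 7, and gives no bound. It was more negative in DF, at -4.39 for bta-miR-335, -4.26 for bta-miR-6526, -3.80 for bta-miR-3431, -3.36 for bta-miR-190b and -3.10 for bta-miR-224. Sums of leukocyte and stroma miRNAs also differed between the DF days, and their part in these differences was not tested. The fit took the 12 libraries as independent, although SF and DF of one day came from the same group of heifers.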

How the results depend on the processing

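Of the 145 DF calls, 123 were kept with DESeq2's Wald test, which gave 6 of them no adjusted p, 142 with TMM, 137 with library size alone, 139 with counts summed over entries and 122 to 131 with 1 library left out, and no sign changed in any of them. The count itself was 92, with 50 increased, when 3 of the 6 libraries had to hold 10 reads or more, a filter that leaves 95 of the 145 to be tested. It was between 122 and 146 with 1 library left out. In SF the 2 calls became 5 with DESeq2, 12 without a filter, 0 at 10 reads, 10 with every entry kept, 1 in a fit of all 12 libraries, and between 0 and 20 with 1 library left out, 20 without SF day 7 replicate 1. The 100 interaction calls ranged from 79 to 126 over the alternatives. The replicate numbers do not pair the days by animal, and whether they pair SF with DF of one day was not tested. With the replicate block, 137 miRNAs were called in DF, 7 in SF and 106 in the interaction. The day difference in the share of the most abundant miRNAs was -6.44 percentage points for 10 miRNAs, -2.85 for 5 and -2.74 for 20. Signs turned for bta-let-7a-5p, not called, at 0.0032 with at least 10 reads, 0.0037 in the fit of 12 libraries and 0.046 without DF day 7 replicate 1 (from -0.076 to 0.046 with 1 library left out), and for bta-miR-26a, not called, at -0.0093 with library size alone and -0.026 without DF day 3 replicate 3 (from -0.026 to 0.22). The cause was not tested. Of 100 called miRNAs named or listed, 79 kept their call under every alternative that tested them. A miRNA that a filter left untested does not count as lost there. The median of all miRNAs was 0.05 with RLE, 0.03 with TMM and -0.09 with library size. Depth limits miRNAs near 3 reads per library, 49 of the 145 calls had a mean under 10 normalized counts, and day cannot be told apart from follicle size.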
